A study of Mus musculus with 40 samples.

Results

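Naive mouse embryonic stem (mES) cells that lack every lamin were compared with wild-type (WT) mES cells by total RNA sequencing. The comparison uses 12 of the 40 libraries of the series, chosen by their genotype and stage labels: 4 libraries of the lamin triple knockout (TKO), in which Lmna, Lmnb1 and Lmnb2 are disrupted, and 8 libraries of WT cells. Both groups were grown in serum-free medium with LIF and 2i, the pair of inhibitors CHIR-99021 at 3 µM (which blocks GSK3) and PD0325901 at 1 µM (which blocks MEK, and so ERK signalling), and were collected 48 h after plating, with new medium at 24 h. Each library came from its own culture well. The WT cells are 1 line, the TKO cells are 1 line, and the TKO line also carries 3 drug resistance markers from its targeting. By the study's methods, TKO cells were trisomic for chromosome 8 and part of them had lost the Y chromosome, whereas most WT cells had a normal karyotype and minorities had lost the Y or carried extra copies of chromosomes 6 and 8. Effects of the lamin genes and differences between the lines from other sources therefore cannot be told apart, and the p-values measure the spread between wells.

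The lamins are intermediate filament proteins that form a meshwork, the nuclear lamina, under the inner nuclear membrane. A-type lamins are made from Lmna and B-type lamins from Lmnb1 and Lmnb2. Large stretches of silent chromatin touch the lamina, where they carry methylation of histone H3 at lysine 9, and the lamin B receptor (LBR), a membrane protein that binds the same chromatin, gives a second tether. Naive mES cells correspond to the preimplantation epiblast, and epiblast-like cells (EpiLCs) made from them correspond to a stage after implantation.

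The wild-type libraries were not alike. Replicates 1 to 4 held 27.7 to 33.1 M counts in genes (M, 1000000), close to the 27.1 to 33.6 M of the TKO libraries, and replicates 5 to 8 held 39.4 to 46.6 M. Between the WT sets, 940 of 23399 tested genes (4.02%) differed by more than 2-fold at an adjusted p under 0.05, 504 of them higher in replicates 5 to 8. The labels give no reason for this, so each result is given against all 8 WT libraries. Where the count of called genes in a list changed, it is also given against replicates 1 to 4. Single genes are not all given both ways. Levels are counts per 1000000 counts (CPM), scaled to each library's effective size throughout, and a gene is called here when its adjusted p in edgeR's quasi-likelihood test is under 0.05 and its difference exceeds 2-fold.

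The TKO cells expressed the genes of naive pluripotency. Across the 14 naive and 6 core pluripotency genes none was called in either direction (4 and 3 had an unadjusted p under 0.05, and DESeq2 also called 0). Pou5f1, which encodes the pluripotency factor OCT4, averaged 386 ± 55.1 CPM in WT (SD, n = 8) and 342 ± 12.3 CPM in TKO (SD, n = 4). Nanog averaged 809 ± 65.9 and 827 ± 14.8 CPM, and Esrrb 913 ± 41.4 and 889 ± 16 CPM. Zfp42, a naive marker also called Rex1, lay outside this pattern without reaching the 2-fold limit: it ran from 278 to 376 CPM in WT with a median of 302, and stood at 599, 577, 563 and 529 CPM in TKO (log2 fold change 0.87, SE 0.13, adjusted p = 1.05e-06). Of 8 fibroblast markers tested, only Thy1 was called, at 1.05 ± 0.24 CPM in WT and 2.25 ± 0.529 CPM in TKO. With WT replicates 1 to 4 as control, 2 of the 8 were higher. Of the 8, 4 had an unadjusted and 3 an adjusted p under 0.05, and DESeq2 called 1 higher and 1 lower. In 2 of the 8 every TKO library lay above every WT library. The summed level of the 8 ran from 1356 to 1646 CPM in WT and from 1889 to 1985 CPM in TKO. The collagen genes that define fibroblasts stayed near 0, with Col1a1 at 1.57 ± 0.45 and 1 ± 0.416 CPM and Col3a1 at 0.0641 ± 0.053 and 0.0511 ± 0.0217 CPM in WT and TKO.

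The targeted genes fell, to different degrees. Lmnb1 ran from 481 to 546 CPM in the 8 WT libraries, with a median of 514, and stood at 8.82, 8.28, 8.51 and 8.26 CPM in TKO (log2 fold change -5.92, SE 0.08, adjusted p = 1.12e-39). Lmnb2 ran from 93.2 to 116 CPM with a median of 108 in WT and stood at 4.06, 3.96, 4.48 and 4.71 CPM in TKO (-4.61, SE 0.12, adjusted p = 2.94e-29). Lmna ran from 45.1 to 71.5 CPM with a median of 55.8 in WT and kept 16.9, 17, 14.1 and 15.7 CPM in TKO (-1.86, SE 0.10, adjusted p = 4.07e-18). No TKO library reached the lowest WT library for any of the 3 genes. A gene's count covers the whole gene, so the transcript that remained for Lmna may come from exons outside the altered stretch, and the counts do not say whether protein was made.

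With 1 exception, the genes listed for the nuclear envelope and for heterochromatin stayed within 2-fold. Of 24 genes for lamina partners and inner nuclear membrane proteins none was called, while 9 had an unadjusted p under 0.05 and DESeq2 called 0. Lbr itself averaged 372 ± 20.6 CPM in WT and 353 ± 16.6 CPM in TKO (adjusted p = 0.757), and Emd, which encodes the lamin-binding protein emerin, 98.2 ± 7.71 and 88.3 ± 4.46 CPM. Among the 6 genes of the LINC complex, which links the lamina to the cytoskeleton, only Syne1 (nesprin-1) was called, at 7.44 ± 1.28 CPM in WT and 3.66 ± 0.631 CPM in TKO (-1.03, SE 0.16, adjusted p = 2.11e-06), and against WT replicates 1 to 4 its fall of 0.83 on the log2 scale did not reach 2-fold. None of 26 genes for H3K9 methylation and heterochromatin was called (8 at an unadjusted p under 0.05, 0 by DESeq2), with log2 fold changes between -0.81 and 0.43.

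**Figure D1:**
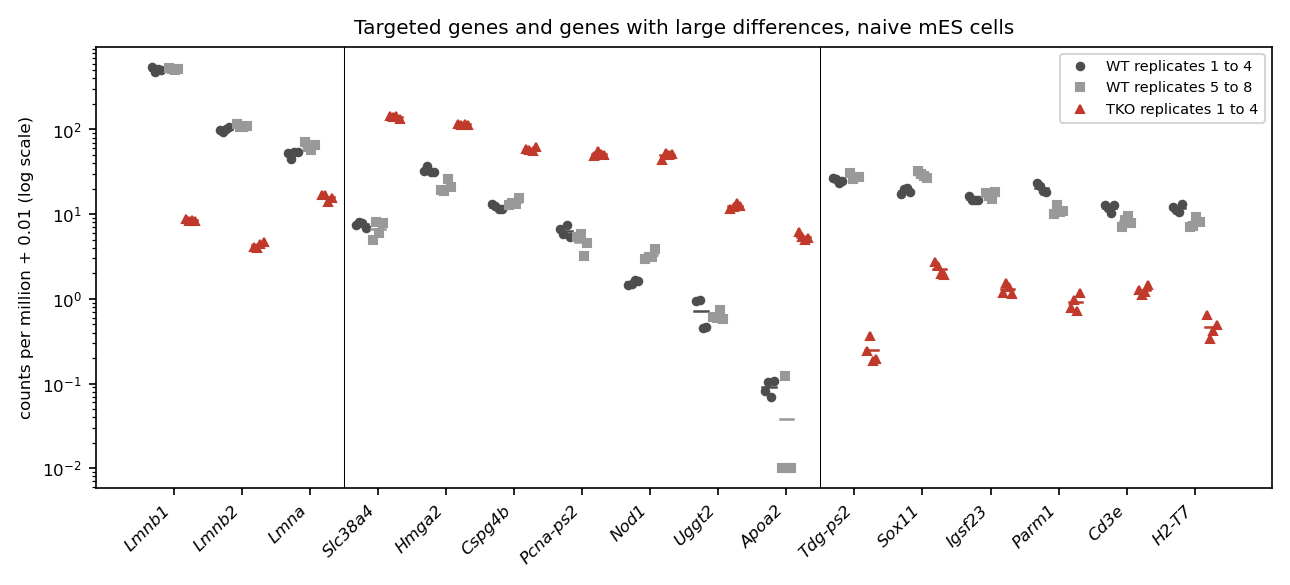
CPM (plus 0.01, log axis) of the 3 targeted genes, 7 genes higher and 6 genes lower in TKO, 1 point per library and a bar at each group mean, with WT replicates 1 to 4, WT replicates 5 to 8 and TKO apart. The WT and TKO points do not overlap for any of these genes, and Lmna keeps a larger share of its WT level than Lmnb1 or Lmnb2. Lack of overlap was part of the rule that picked the genes with the largest folds.

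Over all genes, 1509 of 23399 (6.45%) were called, 628 higher (2.68%) and 881 lower (3.77%) in TKO. Against WT replicates 1 to 4 the counts were 1326 genes (5.67%), 589 higher (2.52%) and 737 lower (3.15%), of which 398 and 586 were also called against all 8 WT libraries. Against replicates 5 to 8 alone 1025 genes were higher (4.38%) and 1115 lower (4.77%). The 4 TKO libraries lay above all 8 WT libraries for 420 of the genes that rose, and for 1329 genes of all (5.68%), and below them for 552 of the genes that fell, and for 2028 of all (8.67%). Genes that rose were mostly scarce, with a median of 0.293 CPM in WT and 0.899 CPM in TKO, and 295 of the 628 (47.0%) are protein-coding, beside 160 long non-coding RNA genes and 68 processed pseudogenes. Genes that fell were more often protein-coding, 745 of 881 (84.6%), with medians of 1.06 CPM in WT and 0.309 CPM in TKO. The counts in each gene list below stand against these shares of all genes, 2.68% higher and 3.77% lower. Fold sizes were larger among the genes that fell: their median was 3.29-fold and 337 exceeded 4-fold, against a median of 2.80-fold and 173 genes over 4-fold among those that rose.

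**Figure D2:**
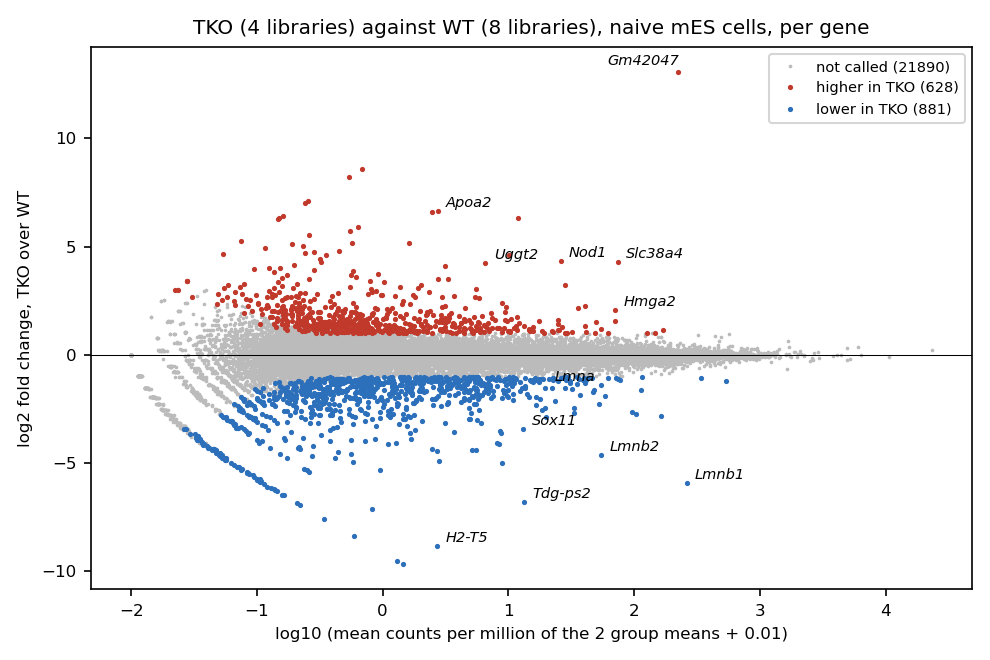
Log2 fold change of TKO over WT for each of the 23399 genes (vertical axis) against the log10 of the mean level of the 2 group means in CPM plus 0.01 (horizontal axis), with genes higher in red (628) and lower in blue (881). Most called genes lie at low levels, Lmnb1 is the lowest point on the right-hand side, and Gm42047 stands alone at the top.

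Apoa2 and Nod1 were among the genes that rose most. Apoa2, which encodes an apolipoprotein of high-density lipoprotein and is normally a liver product, ran from 0 to 0.112 CPM in WT with a median of 0.0659, and stood at 6.14, 5.43, 4.92 and 5.22 CPM in TKO (log2 fold change 6.63, SE 0.37, adjusted p = 3.77e-18). Its WT total was 15 counts over 8 libraries, against 648 in the 4 TKO libraries. Nod1, a cytosolic receptor for fragments of bacterial cell wall, ran from 1.45 to 3.82 CPM with a median of 2.31 in WT, and stood at 44.1, 53.1, 50.3 and 51.4 CPM in TKO (4.34, SE 0.16, adjusted p = 1.59e-24). Every TKO library lay above every WT library for both genes. The DNA around their starts is shown because the pair differ in CpG content: the window from 250 bases before to 50 bases after the start holds 3 CpG sites at Apoa2 and 15 at Nod1 (start as in the deposited gene table, build GRCm39, 5′ to 3′ on the gene's strand, CpG in capitals).
Apoa2, chr1:171052373-171052672, + strand: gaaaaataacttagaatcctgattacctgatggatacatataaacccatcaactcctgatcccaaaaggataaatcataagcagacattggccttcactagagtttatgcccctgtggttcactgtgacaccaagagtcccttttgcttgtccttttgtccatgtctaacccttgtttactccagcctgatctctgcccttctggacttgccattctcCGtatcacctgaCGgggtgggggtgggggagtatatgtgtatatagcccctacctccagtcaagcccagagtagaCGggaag
Nod1, chr6:54949548-54949847, - strand: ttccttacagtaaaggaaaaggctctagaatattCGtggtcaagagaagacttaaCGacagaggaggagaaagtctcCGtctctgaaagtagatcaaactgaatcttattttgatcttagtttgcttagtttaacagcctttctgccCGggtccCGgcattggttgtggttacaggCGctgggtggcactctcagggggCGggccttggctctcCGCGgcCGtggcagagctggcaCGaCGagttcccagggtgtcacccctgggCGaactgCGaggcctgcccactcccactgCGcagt

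Slc38a4, an imprinted gene for an amino acid transporter, was also among the genes that rose most. It ran from 5.01 to 8.17 CPM in WT with a median of 7.64 and stood at 143, 142, 146 and 131 CPM in TKO (4.30, SE 0.09, adjusted p = 1.08e-32). Among 16 transporters of the SLC38 and SLC7 families it was the only gene that rose, while Slc38a3 (-1.66) and Slc7a2 (-1.39) fell. Among 34 imprinted genes it was again the only one that rose, and 4 fell: H19 (-2.78), Peg10 (-1.89), Sgce (-1.49) and Cdkn1c (-1.33). Against WT replicates 1 to 4, 3 of the 34 fell. Peg10 and Sgce are neighbours on chromosome 6, and Peg10 went from 93.1 ± 38 CPM in WT to 25.1 ± 1.5 CPM in TKO.

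Uggt2, which encodes a glucosyltransferase of the glycoprotein quality control in the endoplasmic reticulum, rose from 0.662 ± 0.201 to 12.5 ± 0.943 CPM (4.24, SE 0.13). Prnp, the prion protein gene, rose from 3.38 ± 0.539 to 15.8 ± 0.608 CPM (2.23, SE 0.13), and Hmga2, an architectural chromatin protein gene, from 27.2 ± 6.82 to 115 ± 1.59 CPM (2.08, SE 0.16). All 4 TKO libraries exceeded all 8 WT libraries in each of the 3, and the adjusted p-values lay at 1.34e-13 or below. The libraries did not overlap either for Dcdc2a (2.62), Cspg4b (2.17) and Sgcz (2.18), with adjusted p-values of 3.96e-07 or below. Lack of overlap was part of the rule that picked the genes with the largest folds, so it adds no support for them. In contrast, the call of Adarb2, picked after its values were seen, rested on 1 library at a log2 fold change of 5.16: TKO replicate 3 held 12.3 CPM, whereas the other TKO libraries held 0.0661, 0.0357 and 0.0365 CPM, within the WT range of 0 to 0.187 CPM. Without TKO replicate 3 its log2 fold change was -0.83 and the call was lost.

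Genes of the germ line and of oocytes moved both ways. Cyct, the testis form of cytochrome c, rose from 0.961 ± 0.391 to 6.45 ± 1.26 CPM (2.73, SE 0.21), and the oocyte genes Nlrp4f and Nlrp4a rose by 2.25 and 1.97 on the log2 scale. In the list of 16 germline genes, Piwil2 (1.12), which works in the piRNA pathway, and Sycp1 (1.11), a part of the synaptonemal complex, rose, while Tdrd1 (-2.10) and Slc25a31 (-1.22) fell. Dnmt3l, the cofactor of the de novo DNA methyltransferases, was the only one of 10 DNA methylation genes called: it ran from 18.3 to 31.9 CPM in WT with a median of 21.8, and stood at 57.7, 60.1, 61.6 and 52.2 CPM in TKO (1.32, SE 0.10, adjusted p = 6.54e-14). Of 1379 olfactory receptor genes 46 passed the filter on low counts, of which 9 rose and 2 fell, all at low levels. Against WT replicates 1 to 4, 7 rose and 2 fell. A gene near 0 in WT passes that filter only where other libraries hold it, so no share is given. Among them, Or7g21, Or7g22 and Or7g23 lie side by side on chromosome 9.

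Genes of innate and adaptive immunity moved both ways. Of 10 pattern recognition receptors, Nod1 and Tlr2 rose, and Nlrx1 and Tlr3 fell. With WT replicates 1 to 4 as control, 2 of the 10 rose and 1 fell. Tlr2, a receptor for bacterial lipoproteins, ran from 1.57 to 4.6 CPM in WT with a median of 3.08 and stood at 13.2, 13.5, 11.1 and 8.33 CPM in TKO (1.95, SE 0.19, adjusted p = 1.18e-10). Nlrx1, a mitochondrial member of the NOD-like family, fell from 8.63 ± 0.771 to 1.37 ± 0.27 CPM (-2.66, adjusted p = 6.55e-14). Of 23 antiviral genes none rose and 4 fell (17.4%, against 3.77% of all genes): Bst2 or tetherin (-1.09), the double-stranded RNA sensor gene Ifih1 (-2.70), Ifit2 (-1.51) and Oasl2 (-1.61). Ifih1 stood at only 0.668 ± 0.185 CPM in WT and Ifit2 at 2.31 ± 0.378 CPM, whereas Bst2 stood at 28.6 ± 6.54 CPM.

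The genes lost most completely lie in the major histocompatibility complex. H2-T3 and H2-T5 encode non-classical class I molecules, and Ubd encodes the ubiquitin-like protein FAT10. H2-T5 ran from 4.55 to 6.48 CPM in WT, with a median of 5.24, and the 4 TKO libraries held 1 count between them against 1567 in WT, a ratio of 638 with an exact 95% counting interval of 114 to 25223. H2-T3 held 746 counts in WT and 0 in TKO, at least 101-fold lower when 3 counts over the TKO group are taken as the floor. Ubd held 863 counts in WT and 0 in TKO, at least 117-fold lower by the same floor. These intervals and floors cover counting error only, and they are wide because so few counts were left. H2-T7 fell from 9.88 ± 2.31 to 0.459 ± 0.129 CPM (-4.41, SE 0.24). The class I genes of this region are close copies of each other, so uniquely mapped reads may divide between them, and their separate values carry that uncertainty.

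Processed gene copies gave some of the largest differences. Tdg-ps2, a pseudogene of thymine DNA glycosylase, ran from 23.1 to 30.2 CPM in WT with a median of 26.4 and stood at 0.231, 0.357, 0.177 and 0.183 CPM in TKO (-6.80, SE 0.17, adjusted p = 5.75e-30). Ndufa12-ps fell from 15.9 ± 3.79 to 1.38 ± 0.502 CPM (-3.53, SE 0.23). Pcna-ps2 moved the other way, from 5.51 ± 1.27 to 51.3 ± 3.35 CPM (3.23, SE 0.15). Rpl29, a ribosomal protein gene that was picked after its values were seen, fell from 289 ± 28.4 to 40.7 ± 6.46 CPM (-2.83, SE 0.13), one of the larger falls among abundant transcripts. Reads of all 4 can be shared with a parent gene or with other copies, so these values are uncertain in that respect.

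Sox11, a transcription factor of neural progenitors, ran from 17.3 to 31.9 CPM in WT with a median of 23.6 and stood at 2.71, 2.46, 1.94 and 1.9 CPM in TKO (-3.42, SE 0.15, adjusted p = 5.07e-21). Pax6 also fell (-2.43), and these were 2 of 14 neural progenitor genes tested. Parm1 fell from 15.8 ± 5.29 to 0.9 ± 0.211 CPM (-4.13), Gfra2, a co-receptor for neurturin, from 6.83 ± 2.23 to 0.591 ± 0.2 CPM (-3.54), and Gna14, a G protein subunit, from 5.62 ± 0.424 to 0.635 ± 0.181 CPM (-3.13). Igsf23, an immunoglobulin superfamily gene, ran from 14.6 to 18.3 CPM in WT and stood at 1.16, 1.54, 1.36 and 1.13 CPM in TKO (-3.63, SE 0.16). The log2 fold changes of Nnmt, a nicotinamide methyltransferase gene, Khdc1c, and Irgm1, an interferon-inducible GTPase gene, were -4.92, -4.45 and -3.16. The groups did not overlap for these genes, which the rule that picked them required. Of 19 primitive endoderm genes, 5 fell (26.3%, against 3.77% of all genes) and none rose. Among those that fell were Fgfr2, the endocytic adaptor gene Dab2, the laminin gene Lamb1 and Cubn. The median log2 fold change of the 19 was -0.32. Their summed level was nevertheless higher in TKO, at 1678 to 1726 CPM, than in WT, at 1380 to 1628 CPM. Against WT replicates 1 to 4, 4 of the 19 fell and 1 rose, where 3.15% of all genes fell and 2.52% rose. Lamb1 ran from 26 to 39.9 CPM in WT with a median of 30.2, and stood at 14.1, 14.2, 14.4 and 13.1 CPM in TKO (-1.17, adjusted p = 6.05e-14). The defining factors of that lineage were not called: Gata6 averaged 0.27 ± 0.161 and 0.218 ± 0.0451 CPM, and Sox17 0.453 ± 0.193 and 0.409 ± 0.139 CPM, in WT and TKO.

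Structural and surface genes followed. Of 51 keratins 13 passed the filter on low counts, of which 7 fell and Krt222 rose (1.19). Krt19 fell from 8.19 ± 1.25 to 1.5 ± 0.392 CPM (-2.45), Krt42 from 26.3 ± 6.42 to 6.73 ± 0.114 CPM (-1.96) and Krt17 from 9.69 ± 2.3 to 2.71 ± 0.294 CPM (-1.84). A keratin that is scarce in TKO passes that filter through the groups where it is higher, so no share is given. Of 30 mechanosensitive and cytoskeletal genes none rose and 3 fell: S100a6 (-2.04), Lgals1 (-1.07) and Tgfb2 (-1.12). Against WT replicates 1 to 4, 1 of the 30 rose and 3 fell. Ly6a, the stem cell antigen Sca-1, went from 35.3 ± 4.33 to 4.82 ± 0.881 CPM (-2.87, SE 0.14), and the T cell receptor subunit gene Cd3e from 10 ± 2.19 to 1.26 ± 0.149 CPM (-2.99, SE 0.19). Of 63 replication-dependent histone genes 7 fell (11.1%, against 3.77% of all genes) and none rose, with H2bc15 at 87.7 ± 21.1 CPM in WT and 18.3 ± 1.62 CPM in TKO (-2.26). With WT replicates 1 to 4 as control, 5 of the 63 fell. These libraries were made after ribosomal RNA depletion, so histone mRNAs without a poly(A) tail are included.

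Genes of the 2-cell-like state, a rare state of mES cells that resembles the 2-cell embryo, were lower. Of 13 tested, 9 fell (69.2%, against 3.77% of all genes), and 4 fell against WT replicates 1 to 4, where 3.15% of all genes did. Scarce genes of this kind pass the filter on low counts through the libraries where they are higher, so these shares are a description. Zscan4d ran from 0.0362 to 0.584 CPM in WT with a median of 0.332, and was at 0 in all 4 TKO libraries, at least 12.9-fold lower at a floor of 3 counts over the group. The listed Zscan4 genes that were called were highest in WT replicates 7 or 8, and Zscan4a held 0.584 and 0.452 CPM in these and 0 to 0.224 CPM in the other WT libraries. On chromosome 7, a run of 5 neighbouring Zscan4 entries that includes pseudogenes was lower, and 2 of the 5 were called against WT replicates 1 to 4. Most of these genes are near-identical copies of their neighbours, and the values lie near the detection limit. The MERVL and MT2 repeats, which mark the same state, were not called in any of 8 families (2 at an unadjusted p under 0.05, 0 by DESeq2).

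For ERK- and WNT-responsive genes the number called depended strongly on which WT libraries stood as control. Of 16 genes for FGF receptors and ERK feedback, 6 fell against all WT libraries (37.5%, against 3.77% of all genes) and 1 against WT replicates 1 to 4. Egr1, an immediate early gene, held 31.8 to 40.8 CPM in WT replicates 1 to 4, 60.1 to 913 CPM in replicates 5 to 8, and 31.5, 32, 19.9 and 27.1 CPM in TKO. Its log2 fold change was -2.72 against all WT libraries (adjusted p = 0.00218) and -0.42 against replicates 1 to 4 (adjusted p = 0.65). WT replicate 7 held the highest value of Egr1 (913 CPM), Spry4 (29.4 CPM), Dusp6 (59.8 CPM) and Dusp4 (17.5 CPM). Without that library the latter 3 fell by less than 2-fold, and the log2 fold change of Egr1 was -1.48. The gene that kept its call against either WT set was Fgfr2, an FGF receptor gene: it ran from 7.43 to 10.3 CPM in WT with a median of 8.86 and stood at 1.49, 1.61, 2.45 and 1.83 CPM in TKO (-2.26, SE 0.18, adjusted p = 2.72e-13; -2.24 against replicates 1 to 4).

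Of 17 WNT ligands and targets, 7 fell against all WT libraries (41.2%, against 3.77% of all genes) and 3 against replicates 1 to 4. Sp5, a direct target of beta-catenin, held 15.4 to 19.2 CPM in WT replicates 1 to 4, 81.4 to 116 CPM in replicates 5 to 8, and 9.48, 12.4, 8.54 and 10.9 CPM in TKO. The TKO level was thus below both WT sets, but by 2.45 on the log2 scale against all WT libraries and by 0.70 against replicates 1 to 4. Lef1, a WNT effector, and T, the mesoderm factor brachyury, changed sign: -1.73 and -2.72 against all WT libraries became 0.09 and 0.35 against replicates 1 to 4, neither past the threshold. Cdx2, a trophectoderm and hindgut factor, did the same (-3.92 and 0.68). The 3 ligand genes Wnt5a (-2.38), Wnt6 (-1.17) and Wnt7b (-1.17) were called against both sets.

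**Figure D3:**
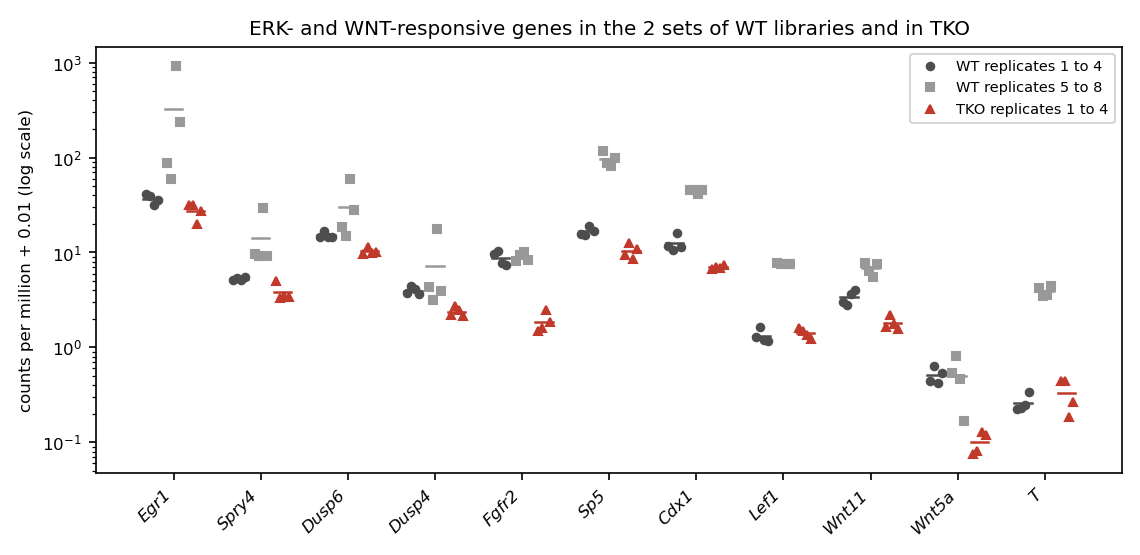
CPM (plus 0.01, log axis) of 5 FGF and ERK pathway genes and 6 WNT-responsive or WNT ligand genes, 1 point per library with a bar at each group mean. For Sp5, Cdx1, Lef1 and T the WT replicates 5 to 8 stand far above the replicates 1 to 4, which lie close to the TKO libraries, whereas Fgfr2 and Wnt5a lie lower in every TKO library than in every WT library.

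Several other lists showed no called member. None of 20 p53 targets was called, although 16 had an unadjusted and 14 an adjusted p under 0.05. The median log2 fold change of the 20 was -0.35. In 10 of the 20 every TKO library lay below every WT library, against 8.67% of all genes. None of 22 cholesterol synthesis genes was called (14 at an unadjusted and 11 at an adjusted p under 0.05), with log2 fold changes between -0.56 and 0.06. In 10 of the 22 every TKO library lay below every WT library. No member was called among 9 Nodal pathway genes (2 at an unadjusted and 1 at an adjusted p under 0.05) or 13 mitochondrially encoded genes (1 and 0). The same held for 61 zinc finger genes named Zfp900 to Zfp999 (32 and 26, with a median log2 fold change of 0.13). In 20 of the 61 every TKO library lay above every WT library, against 5.68% of all genes. A list without a call can thus hold smaller shifts. With WT replicates 1 to 4 as control, 1 Nodal pathway gene was lower and 1 of the 61 zinc finger genes higher. DESeq2 called 0 genes in all 5 of these lists. The remaining lists held 1 to 3 called genes in a direction, where 2.68% of all genes were higher and 3.77% lower: 0 higher and 3 lower of 15 formative and primed epiblast genes, 0 and 1 of 13 trophectoderm genes, 0 and 2 of 13 mesendoderm genes, 2 and 1 of 10 secreted endoderm genes, 2 and 1 of 20 retrotransposon silencing genes, 0 and 2 of 26 clustered protocadherins, 0 and 2 of 22 Hox genes, 0 and 2 of 6 Rhox genes, 2 and 3 of 22 serpins, 1 and 1 of 36 collagens, 1 and 1 of 15 claudins, 1 and 1 of 18 cadherins, and 0 and 3 of 20 ephrins and Eph receptors. Where 2 or 3 genes of these lists were called in a direction, their share was above that of all genes, and it rests on those few genes. Only 6 of 32 Rhox genes, 22 of 64 serpins and 10 of 22 secreted endoderm genes passed the filter on low counts. Scarce genes pass it through the groups where they are higher, so these shares are a description. Apoa2 is 1 of the 2 secreted endoderm genes that rose. Against WT replicates 1 to 4, no trophectoderm or mesendoderm gene was lower, and 1 each of the protocadherins, the Hox genes and the ephrins and Eph receptors was. The collagens then had 2 higher and 0 lower, the claudins 0 and 2, and the retrotransposon silencing genes 2 and 2.

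Called genes lay partly in runs of neighbours. Taking 3 or more consecutive tested genes called in the same direction as a run, there were 17 runs of genes that rose, holding 58 genes (9.24% of those that rose), and 25 runs of genes that fell, holding 87 genes (9.88%). The longest, with 6 genes, covers the non-classical class I genes from H2-T10 to H2-T3 (chr17:36426768-36501179), where each gene fell by 1.80 or more on the log2 scale and all 6 were also called against WT replicates 1 to 4. Nearby on the same chromosome, the 4 class II genes H2-Ab1, H2-Aa, H2-Eb1 and H2-Eb2 (chr17:34476663-34560386), which encode the chains that present peptides to helper T cells, rose together. Other runs held Cd3g, Cd3d and Cd3e (lower), Krt16, Krt17 and Krt42 (lower), Rnf144a, Rsad2 and Cmpk2 (lower), Aire, Dnmt3l and Icosl (higher), Akr1c18, Akr1c13 and Akr1c12 (higher), and Uggt2 with Hs6st3 and a pair of non-coding genes (higher).

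Within the class II run, H2-Eb1 carried most of the signal. It ran from 4.34 to 6.25 CPM in WT, with a median of 5.52, and stood at 18.3, 18.5, 17.1 and 19.1 CPM in TKO (1.76, SE 0.15, adjusted p = 1.47e-12). H2-Ab1 ran from 0.246 to 0.622 CPM with a median of 0.407 in WT and stood at 2.11, 1.93, 1.89 and 1.68 CPM in TKO (2.15, SE 0.24, adjusted p = 4.01e-09). H2-Aa (2.16, adjusted p = 0.00766) and H2-Eb2 (3.84, adjusted p = 9.92e-05) were close to the detection limit in WT, and H2-Aa was not called against replicates 1 to 4. In EpiLCs none of the 4 rose by 2-fold. Class II promoters are known for a Y box, CTGATTGG, which binds NF-Y. The starts of 3 of the genes are shown because a search for these letters on both strands found a match in each. It lay 62 bases before the start in H2-Eb1, 51 in H2-Aa and 93 in H2-Eb2 (GRCm39, 5′ to 3′ on the gene's strand, the match in capitals). No match was in the window of H2-Ab1. In the same window of all tested genes, 4.53% of 23398 held these letters, and 5.1% of the 628 genes that rose.
H2-Eb1, chr17:34524591-34524890, + strand: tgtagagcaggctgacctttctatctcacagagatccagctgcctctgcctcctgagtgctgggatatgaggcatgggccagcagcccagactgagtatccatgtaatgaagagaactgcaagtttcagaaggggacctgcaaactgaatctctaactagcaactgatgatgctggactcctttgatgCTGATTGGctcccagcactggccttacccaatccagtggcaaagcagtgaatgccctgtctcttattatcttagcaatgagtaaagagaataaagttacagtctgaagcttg
H2-Aa, chr17:34506748-34507047, - strand: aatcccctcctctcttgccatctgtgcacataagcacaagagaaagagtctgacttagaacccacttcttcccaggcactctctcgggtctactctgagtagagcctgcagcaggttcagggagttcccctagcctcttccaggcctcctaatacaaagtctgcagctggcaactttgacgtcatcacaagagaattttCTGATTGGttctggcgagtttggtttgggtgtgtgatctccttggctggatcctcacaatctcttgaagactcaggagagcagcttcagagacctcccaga
H2-Eb2, chr17:34544389-34544688, + strand: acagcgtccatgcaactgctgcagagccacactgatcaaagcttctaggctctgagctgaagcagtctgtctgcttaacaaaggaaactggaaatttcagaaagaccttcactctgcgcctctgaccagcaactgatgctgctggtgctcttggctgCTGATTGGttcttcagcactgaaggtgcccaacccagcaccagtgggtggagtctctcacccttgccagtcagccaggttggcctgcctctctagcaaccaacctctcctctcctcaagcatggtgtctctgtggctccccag

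Promoters of called genes held fewer CpG sites than those of all tested genes. In the window of 250 bases before to 50 after the start, the median ratio of observed to expected CpG was 0.365 for genes that rose, 0.429 for genes that fell and 0.58 over all 23398 tested genes with a window. Among protein-coding genes alone the medians were 0.439, 0.448 and 0.686, so both directions lay on the same side. TATAAA, the letters of a TATA box, occurred on either strand in 16.1% of the promoters of genes that rose, 14% of those that fell and 11.2% of all. CACGTG occurred in 5.41%, 6.92% and 8.08%, and TGACGTCA in 1.11%, 1.82% and 2.33%. Called genes are also scarcer transcripts than most tested genes, and the part of expression level in these shares was not tested.

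By chromosome, the shares of all gene counts differed little. The share of chromosome 6 was lower in TKO by 0.15 on the log2 scale (adjusted p = 0.0141, two-sided exact permutation test over 495 splits), and the median gene there was lower by 0.16, with 21 genes called higher and 57 lower of 1167. The Y chromosome's share was higher by 0.37 (adjusted p = 0.0141), and 4 of its 14 tested genes rose: Uba1y, Zfy1, Zfy2 and Kdm5d. In a list of 8 Y-linked genes, 4 rose, or 3 against WT replicates 1 to 4. Uba1y, a ubiquitin-activating enzyme gene, ran from 4.21 to 6.03 CPM in WT with a median of 4.8 and stood at 14.9, 15.1, 14.3 and 14.2 CPM in TKO. Chromosome 8, trisomic in the TKO line by the study's methods, differed by 0.01 (adjusted p = 0.115). In all, 9 of 21 chromosomes had an adjusted p under 0.05. With 4 TKO against WT replicates 1 to 4 only, the smallest unadjusted p that 70 splits allow is 0.0286, and none of the 21 passed. Leaving out all genes on chromosomes 6, 8 and Y left 571 genes higher and 779 lower.

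Many differences of naive cells were not seen in EpiLCs of the same 2 lines, and others were. In EpiLCs, 336 genes (1.44%) were higher and 346 (1.48%) lower in TKO than in WT. Of the 628 genes that rose in mES cells, 124 were also called higher and 3 lower in EpiLCs, and of the 881 that fell, 151 were also called lower and 4 higher. A test of the difference between the stages had an adjusted p under 0.05 for 552 of the 1509 genes called in mES cells, against 1974 of all 23399 (8.44%). Being called in mES cells is part of that test, so the share is a description. The median log2 fold change of the genes that rose was 1.49 in mES cells and 0.49 in EpiLCs, and of those that fell -1.72 and -0.42.

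**Figure D4:**
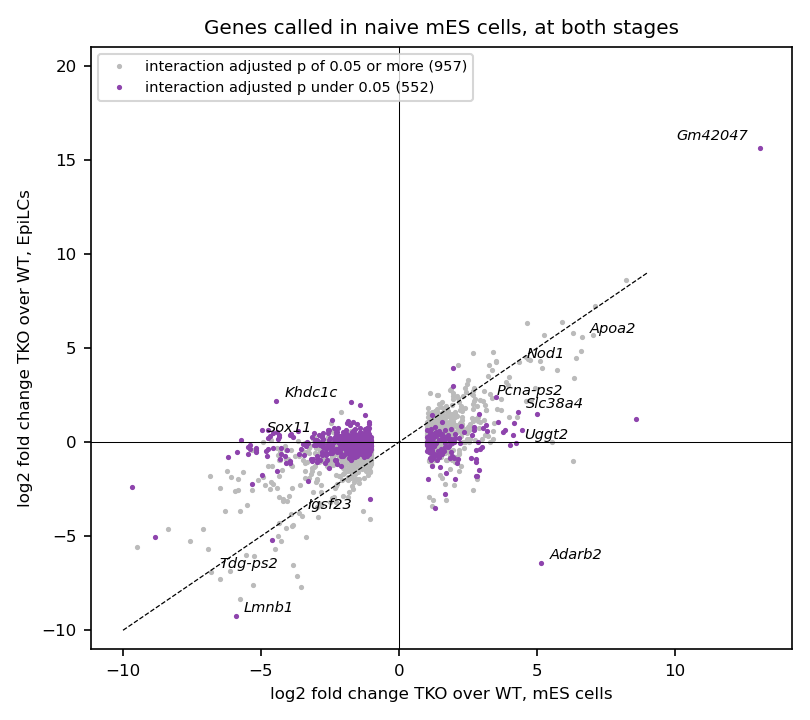
Log2 fold change of TKO over WT in EpiLCs (vertical axis) against that in mES cells (horizontal axis) for the 1509 genes called in mES cells, purple where the difference between stages has an adjusted p under 0.05 (552 genes), with a dashed line where both stages are equal. Lmnb1, Tdg-ps2, Igsf23, Nod1 and Apoa2 lie near the dashed line or beyond it, whereas Sox11 and Uggt2 lie near 0 in EpiLCs.

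Genes with like values in both stages included Nod1 (4.34 in mES cells and 4.27 in EpiLCs, adjusted p of the difference 0.93), Pcna-ps2 (3.23 and 3.50), Tdg-ps2 (-6.80 and -6.89), Igsf23 (-3.63 and -3.77), Cyct (2.73 and 2.86) and H2bc15 (-2.26 and -2.24). Stage-dependent genes included Sox11 (-3.42 and -0.11, difference 3.32, adjusted p = 4.97e-17), Uggt2 (4.24 and -0.05, adjusted p = 1.56e-20), Parm1 (-4.13 and -0.75) and Fgfr2 (-2.26 and 0.54, adjusted p = 4.21e-12). Slc38a4 kept a smaller rise in EpiLCs, 1.61 against 4.30. Lmna fell less in EpiLCs (-0.55), whereas Lmnb1 fell more (-9.26).

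The levels in the other mutants of the series show which of these values travel with the TKO line. The LBR knockout (LBRKO) was made from WT cells, and the quadruple knockout (QKO), which lacks the lamins and LBR, is a single clone made from the TKO line. Nod1 averaged 2.4 CPM in WT, 6.04 in LBRKO, 49.7 in TKO and 60.2 in QKO mES cells. Tdg-ps2 averaged 26.5, 27.4, 0.237 and 0.178 CPM in the same order, Apoa2 0.0544, 0.0596, 5.43 and 6.41 CPM, and Sox11 24.1, 24.1, 2.25 and 1.06 CPM. For these genes LBRKO lay closer to WT and QKO closer to TKO. Slc38a4 and Ly6a did not follow this order so closely: Slc38a4 averaged 7.16, 2.69, 141 and 25 CPM, and Ly6a 35.3, 48.7, 4.82 and 20 CPM. The TKO and QKO libraries share both the absence of lamins and the parent line, which cannot be told apart here.

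Transposable elements (TEs) were counted by family, with reads that map to several places shared among them. Of 1142 families tested, 24 rose (2.1%) and 1 fell (0.0876%), against 40 higher (3.5%) when WT replicates 1 to 4 stood alone as control. The median family lay at a log2 fold change of 0.25, or 0.42 against replicates 1 to 4, so the values below sit on a general shift. TEs took 6.73 to 7.71% of counts in 7 WT libraries, 9.87% in WT replicate 7 and 8.67 to 9.98% in TKO. Without WT replicate 7, 38 families rose, and after centring on the median family 14 did. The family that fell was Charlie7a, a DNA transposon, at 0.711 to 1.43 CPM in WT and 0.331, 0.582, 0.318 and 0.567 CPM in TKO (-1.14, SE 0.27, adjusted p = 0.00148), and its call was lost against replicates 1 to 4.

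The young LINE-1 families of the L1MdA type rose most among LINEs. L1MdA_I ran from 148 to 356 CPM in WT with a median of 231 and stood at 2059, 1844, 1891 and 1970 CPM in TKO (log2 fold change 3.07, SE 0.15, adjusted p = 2.09e-19). L1MdA_II ran from 58.8 to 108 CPM in WT with a median of 68.7 and stood at 315, 267, 316 and 316 CPM in TKO (2.05, SE 0.13). Every TKO library exceeded the highest WT library several-fold for L1MdA_I. In all, 3 of 7 L1MdA families and 4 of 18 young LINE-1 families were called, where 2.1% of all families rose. L1MdGf_I was the other LINE among the 10 largest rises (1.54, SE 0.14), whereas L1MdTf_III had a log2 fold change of -0.61. In uniquely mapped reads, 1 locus on chromosome 3 held 60.9% of the net increase of L1MdGf_I.

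Of the 24 families that rose, 18 were LTR families, which made up 603 of the 1142 tested. By group, 13 of 274 ERVK families and 4 of 111 ERV1 families rose. The family counts here stand against 2.1% of all families, or 3.5% against WT replicates 1 to 4. Against WT replicates 1 to 4 the LTR, ERVK and ERV1 counts were 25, 15 and 7. The internal regions MMERGLN-int (4.48), ERVB4_3-I_MM (1.94), ETnERV3-int (1.91), RLTR45-int (1.62) and MMERVK9C_I (1.49) led, with the LTRs MMERGLN_LTR (2.63) and RLTR10D2 (1.40). Of 4 ERVK families that the study itself named as upregulated in QKO mES cells, 3 rose here. The QKO clone was made from the TKO line and was also set against WT, so this is not independent evidence. Of 25 IAP families 1 rose, or 2 against WT replicates 1 to 4 (17 at an unadjusted p under 0.05), and IAPEz-int lay between 398 and 571 CPM in WT and at 426, 430, 451 and 458 CPM in TKO (-0.08, adjusted p = 0.513). No B1 or B2 family (10 tested, 6 at an unadjusted p under 0.05) and no satellite (3 tested, 1 at an unadjusted p under 0.05) was called, and DESeq2 called 0 in both.

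Counts of uniquely mapped reads at single copies showed whether a family's increase was spread or came from 1 place. Of 134958 copies tested, 4638 rose (3.44%) and 910 fell (0.674%). The table lists 4683 L1MdA_I copies, of which 776 passed the filter on low counts and 675 rose, or 601 against WT replicates 1 to 4. The locus that gained most held 5.94% of the family's net increase. Most copies are near 0 in WT and passed the filter through the groups where they are high, so the number that rose is given and not its share of those tested. By number, 144 of 5350 L1MdA_II copies, 67 of 1104 RLTR45-int copies and 55 of 1738 MMERVK9C_I copies rose, with 245, 133 and 169 tested. In contrast, 1 locus held 97.6% of the net increase of MMERGLN-int, 94.1% of that of ETnERV3-int and 76.9% of that of RLTR4_MM-int. The share at 1 locus was also large for ERVB5_1-I_MM (87.9%), RLTR10D2 (81.6%), MMERGLN_LTR (81.1%), L1MdGf_I (60.9%) and L1MdA_IV (50.2%).

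**Figure D5:**
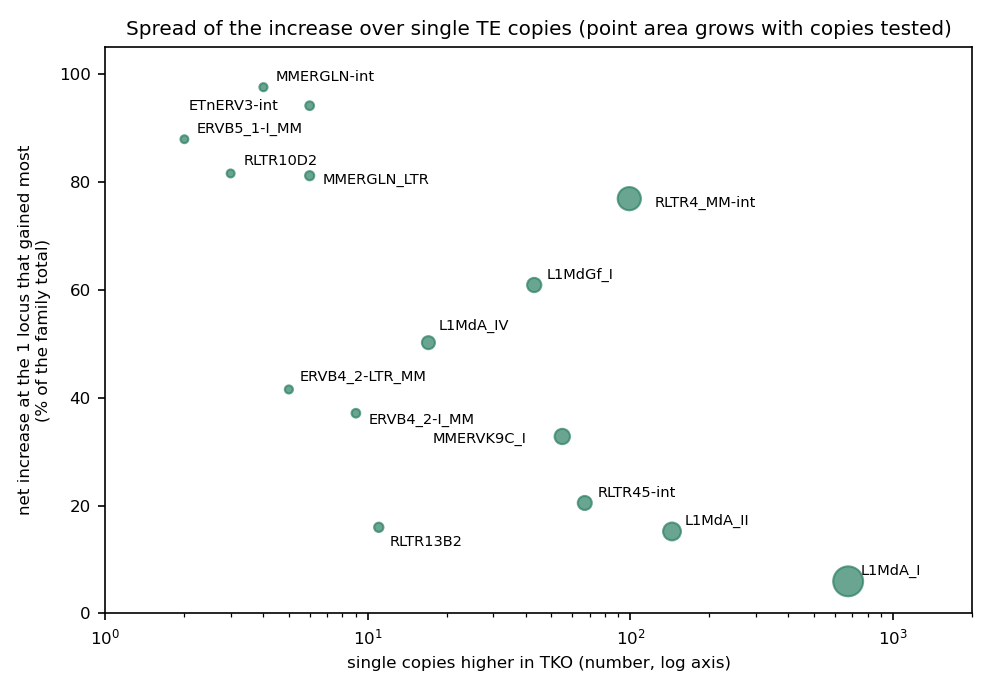
For the 15 called families with 9 or more tested copies, the number of single copies that rose in TKO (horizontal axis, log scale) against the share of the family's net increase that came from the single locus that gained most (vertical axis, percent), with point area growing with the number of copies tested. L1MdA_I lies at 675 copies and 5.94% in the lower right corner, and MMERGLN-int and ETnERV3-int lie at the top left.

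The locus behind MMERGLN-int and RLTR4_MM-int is a provirus on chromosome 8 (chr8:122559584-122568003), in which both families' names label adjoining pieces between a pair of LTR fragments. It held 0 to 0.0654 CPM in WT and 554, 577, 554 and 582 CPM in TKO. Its mean was 0.0106 CPM in LBRKO mES cells, 598 CPM in QKO mES cells, 0.0103 CPM in WT EpiLCs, 1056 CPM in TKO EpiLCs and 1048 CPM in QKO EpiLCs, so it was near 0 in the groups made from the WT line. Gm42047, a non-coding gene that the annotation places over the provirus (chr8:122559986-122567917), had the largest increase in the gene table: it ran from 0 to 0.131 CPM in WT and stood at 427, 457, 439 and 458 CPM in TKO (13.08, SE 0.14). The neighbouring gene Klhdc4 ran from 30.8 to 37.5 CPM in WT and stood at 78.6, 73.8, 75.6 and 76.6 CPM in TKO (1.19, SE 0.06, adjusted p = 1.37e-20). Gm42047 and Klhdc4 were picked after their values were seen. Whether both lines carry this provirus was not tested.

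Among the L1MdA_I copies, the increase lay mostly in the long ones. Summed over all 739 listed copies over 6 kilobases, whether or not they passed the filter, uniquely mapped reads ran from 23.5 to 38.4 CPM in WT with a median of 27.1, and stood at 590, 579, 549 and 643 CPM in TKO, a ratio of means of 20.9. The 671 copies between 4 and 6 kilobases summed to 14.6 ± 3.52 CPM in WT (SD, n = 8) and 140 ± 4.83 CPM in TKO (SD, n = 4), and the 199 copies between 2 and 4 kilobases to 1.64 ± 0.499 and 16.3 ± 0.373 CPM. The 3074 shorter copies summed to 40.4 to 328 CPM in WT and to 270, 226, 126 and 154 CPM in TKO, so that the groups overlapped only in this class. The 3 copies that gained most are shown by their first 200 bases, because the 5′ end of a full-length L1MdA element carries its promoter as repeated monomers. In each of the 3, the start matched itself best at a shift of 208 bases, with 98.1, 97.1 and 96.5% of bases identical, and the first 1000 bases held 60, 60 and 62 CpG sites (GRCm39, 5′ to 3′ on the strand of the element, CpG in capitals).
L1MdA_I copy on chromosome 5, chr5:68370525-68379581, - strand: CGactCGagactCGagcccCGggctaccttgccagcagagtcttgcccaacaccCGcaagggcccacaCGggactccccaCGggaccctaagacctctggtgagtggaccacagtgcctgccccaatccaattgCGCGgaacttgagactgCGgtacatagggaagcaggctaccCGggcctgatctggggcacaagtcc
L1MdA_I copy on chromosome 16, chr16:42799192-42806186, - strand: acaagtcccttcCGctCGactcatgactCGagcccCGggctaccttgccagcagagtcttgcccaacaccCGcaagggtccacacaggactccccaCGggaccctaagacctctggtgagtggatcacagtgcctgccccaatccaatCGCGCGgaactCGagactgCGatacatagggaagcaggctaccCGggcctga
L1MdA_I copy on chromosome 6, chr6:66977611-66986615, - strand: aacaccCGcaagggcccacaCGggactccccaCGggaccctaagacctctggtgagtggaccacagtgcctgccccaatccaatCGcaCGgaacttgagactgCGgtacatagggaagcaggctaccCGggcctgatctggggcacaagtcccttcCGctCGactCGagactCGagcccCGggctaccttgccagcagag

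The copy on chromosome 5 ran from 0.61 to 2.39 CPM in WT and stood at 44.9, 48.9, 20.4 and 55.4 CPM in TKO (log2 fold change 4.99, SE 0.23). The copy on chromosome 16 ran from 0 to 0.228 CPM in WT and stood at 28.6, 22.4, 25.6 and 31 CPM in TKO (8.20, SE 0.26), and that on chromosome 6 from 0.194 to 1.77 CPM in WT and at 24.6, 13.9, 19.3 and 23 CPM in TKO (4.46, SE 0.23). All TKO libraries exceeded all WT libraries at the 3 copies. The chromosome 5 and 6 copies were higher in WT replicates 1 to 4 than in replicates 5 to 8, and TKO lay above both sets.

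Genes that rose had TE copies that rose nearby more often than tested genes in general. A copy that rose lay within 10000 bases upstream of 15% of the genes that rose, of 0.908% of those that fell and of 3.07% of all tested genes, and inside 24.2%, 1.93% and 5.11% of them. Any tested copy, risen or not, lay upstream of 40.1%, 18% and 40.9%. Copies and genes were tested on the same libraries, and reads of a transcript that runs through both raise both, so the shares are a description. Only 3 of the 628 genes that rose had a risen L1MdA_I or L1MdA_II copy in that upstream window, and 21 had one inside.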

How the data were processed

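Total RNA from naive mES cells and EpiLCs was sequenced after ribosomal RNA depletion (Illumina Stranded Total RNA, 150 bp paired reads). The authors deposited raw counts per gene, TE family and TE copy. Per the study's methods and the submitters' processing notes, a leading T was trimmed with cutadapt (2.5), reads were mapped to GRCm39 with STAR (2.7.10a), which also clipped adapters, uniquely mapped reads were counted with featureCounts (1.6.4) on GENCODE annotation, and families were counted by TEtranscripts with multimapping reads. For the counting, a strand setting is not given in the sources used here. Reads of a gene and of an overlapping antisense gene may not be separable.

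Genes were tested with edgeR (4.0.16, TMM, filterByExpr, quasi-likelihood test) in 1 model of all 40 libraries with a mean for each of 8 groups; WT mES replicates 1 to 4 and 5 to 8 formed separate groups for the second contrast. Of 56748 gene identifiers, 23399 passed the filter. TE families were tested with the genes in 1 model, and single copies that had at least 20 counts over all libraries and passed filterByExpr (134958 of 3799629) with the library sizes of the gene table. P-values were adjusted by Benjamini-Hochberg over each table, and a call needed an adjusted p under 0.05 and over 2-fold. Chromosome shares were compared by two-sided exact permutation tests. Alternatives were DESeq2 (1.42.0), its size factors, no filter, other WT sets, each library left out, and a replicate block. The model was tested on simulated counts before use.

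Named genes are the targeted genes, Apoa2, Nod1, members of 41 gene lists that were called (or defining members), genes in runs, and per direction the 15 largest folds among genes with symbols of their own (not clone names) called against both WT sets, with no overlap between libraries and at least 5 CPM; for TE families the 10 largest at 1 CPM. The members and lists were chosen with earlier results of these data known. Libraries of the other mutants enter the model and are described where they bear on a named gene. Libraries of a group did not agree within counting noise for any pair (chi-square per degree of freedom 4.68 to 7.84 in TKO and 6.88 to 46.3 in WT). A few named genes that meet these rules are not reported here.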

Additional observations from a re-analysis of the deposited data

Results flagged for a closer look

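The change in TKO differed between naive mES cells and EpiLCs, by a test of the difference itself at an adjusted p under 0.05 in edgeR's quasi-likelihood test, for 18 of the 30 targeted and most changed genes and for 9 of the 10 most changed TE families. The values are the log2 fold change in EpiLCs minus that in mES cells. Among the targeted genes it was -3.34 for Lmnb1, -0.59 for Lmnb2 and 1.32 for Lmna. Among genes that rose in mES cells it was negative for Uggt2 (-4.29), Dcdc2a (-3.45), Slc38a4 (-2.69), Cspg4b (-1.97) and Prnp (-1.36), and positive for Tlr2 (1.03). Among genes that fell it was positive for Khdc1c (6.62), H2-T5 (3.76), Parm1 (3.39), Sox11 (3.32), Gfra2 (3.18), H2-T7 (2.87), Cd3e (2.85), Gna14 (2.25) and Irgm1 (2.14). Apart from Tlr2, these genes that rose or fell all had a log2 fold change of smaller size in EpiLCs. Its sign was the opposite one for Khdc1c (2.16), Dcdc2a (-0.82) and Uggt2 (-0.05), none of which was called in EpiLCs. These genes were chosen for the size of their difference in mES cells.

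Among TE families the difference was -1.95 for ETnERV3-int, -1.82 for ERVB4_3-I_MM, -1.41 for RLTR10D2, -1.32 for RLTR45-int, -1.27 for L1MdA_I, -0.94 for L1MdA_II and -0.71 for MMERVK9C_I. It was positive for MMERGLN-int (1.16) and MMERGLN_LTR (0.89), most of whose increase came from the provirus on chromosome 8.

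Single libraries stood apart from the rest of their group by Dixon's test in 9 of 122 groups of values, where chance gives about 6.1. WT replicate 7 was highest for L1MdA_II (108 CPM), ETnERV3-int (18.8 CPM), L1MdGf_I (157 CPM) and the share of counts on chromosome 18 (2.46%). TKO replicate 2 was lowest for MMERGLN-int (80.8 CPM) and L1MdA_II (267 CPM). TKO replicate 3 held the single count of H2-T5 (0.0295 CPM) and the highest share on chromosome 18 (2.36%), and TKO replicate 1 the lowest share on chromosome 5 (6.17%).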

How the results depend on the processing

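The targeted genes kept their calls under every alternative run, with leave-one-out log2 fold changes of -5.94 to -5.91 for Lmnb1, -4.66 to -4.58 for Lmnb2 and -1.91 to -1.81 for Lmna. Of the genes with the largest folds, 29 were followed, Lmnb1 and Lmnb2 among them. They kept direction and call in all alternatives, with 27 of them present when chromosomes 6, 8 and Y were left out. They had been picked for calls against both WT sets and for libraries without overlap, so this is a description. Leaving out each library in turn gave 539 to 675 genes higher and 797 to 925 lower, DESeq2 gave 645 and 886, and no filter on low counts 629 and 958, of which 512 and 847 were among the genes called with the filter. WT replicates 5 to 8 alone gave 1025 genes higher. For TE families, the count of 24 higher became 40 with WT replicates 1 to 4 alone, 14 after centring on the median family (an alternative chosen after seeing the data), and 22 to 38 when each library was left out, with 38 without WT replicate 7. The count of 1 family lower became 0 with WT replicates 1 to 4 and ranged from 0 to 1 with libraries left out, being 0 without TKO replicate 3. Single copies called lower numbered 581 with WT replicates 1 to 4 in place of 910. The 9 chromosomes past the threshold became 0 with WT replicates 1 to 4, a design too small to pass it, and 4 to 10 with libraries left out (4 without TKO replicate 4, and 5 without WT replicate 3 or WT replicate 8).

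Log2 fold changes reversed with WT replicates 1 to 4 for Akap6 (0.45), Cdx2 (0.68), Lef1 (0.095) and T (0.35), and that of Adarb2 ran from -0.83 without TKO replicate 3 to 5.56. On chromosomes 3, 13 and 19 the median gene moved against the share of counts (0.0017, 0.034 and -0.034). The cause was not tested. Over the named genes, 147 of 3192 leave-one-out values, in 51 of 266 genes, and 146 of 2099 others lost the call in the same direction.

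With the replicate number as a block, 584 genes were higher and 736 lower, and 33 families higher and 1 lower. The numbers do not pair the samples, since deviations of same-numbered WT and TKO libraries correlated at only -0.02 to 0.06. Limits are the use of 1 line per genotype, the unexplained difference between the WT sets, karyotypes that differ, and depth: genes at a few counts per library, such as the Zscan4 genes, H2-Aa and H2-Eb2, have wide errors.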
